A study of Mus musculus with 7 samples.

Results

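Ketone body synthesis and use were examined through 6 genes, Ppara, Cpt1a, Acat1, Bdh1, Bdh2 and Oxct1, in RNA sequencing of mouse retinal pigment epithelium (RPE), the pigmented monolayer behind the photoreceptors. The 6 genes were chosen by name from 52740 gene identifiers in the count table, and all 6 were among the 16990 genes that passed the filter on low counts and were tested. The 7 libraries came from 1 mouse each, all 24 months old. The WT group held C57BL6/J females F1, F2 and F3 and the male M1, and the LC3b-/- group held females F1 and F3 and the male M of the strain B6;129P2-Map1Lc3btm1Mrab/J, in which Map1lc3b, the gene of an autophagy protein, is disrupted in the germline. No other allele or treatment was given for either group. The strain names differ in background as well as in Map1lc3b, and the numbers in the mouse names are 1 number for all WT mice and other numbers for all LC3b-/- mice, so that strain background and whatever that number marks cannot be told apart from genotype.

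Ketone bodies are made in mitochondria from the acetyl-CoA that fatty acid oxidation releases. Cpt1a brings long-chain fatty acids to the mitochondrion, Acat1 joins acetyl-CoA units to acetoacetyl-CoA, further enzymes turn this into acetoacetate, and Bdh1 reduces acetoacetate to beta-hydroxybutyrate. A cell that uses ketone bodies runs Bdh1 backwards, activates acetoacetate with Oxct1, the enzyme that the liver lacks, and splits the product with Acat1. Ppara encodes the nuclear receptor PPARα, which is switched on by fatty acids and drives many genes of this route. The RPE takes up lipid-rich photoreceptor outer segments every day, is known to make beta-hydroxybutyrate from them, and passes it to the neural retina through monocarboxylate transporters.

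The libraries held between 24495952 and 35616134 estimated counts. Levels are given as CPM, counts scaled to a common library total with TMM factors. Map1lc3b, the disrupted gene, had 2778 to 4444 counts in the WT libraries and 168 to 332 in the LC3b-/- libraries, so that each library matched its genotype label. This gene does not check the sex labels. The libraries differed in the levels of cell type markers. The summed CPM of 12 RPE markers ranged from 31684 to 48750 in WT and from 14591 to 29309 in LC3b-/-, with no overlap (exact permutation test, two-sided, p = 0.0286, the smallest that 4 against 3 libraries allow). Of the 12 markers, 11 were lower in LC3b-/- by their fitted difference, and Best1, a defining RPE gene, was near 1 CPM in both groups, between 0.861 and 1.71 CPM. Taken singly, 4 of the 12 had every LC3b-/- library below every WT library, beside 10.3% of all genes. The smallest edgeR adjusted p among the 12 was 0.103, for Lrat. The summed level of 11 ocular surface epithelium markers, mostly keratins, ranged from 9.81 to 2466 CPM in WT and from 3467 to 25286 CPM in LC3b-/-, where F1 was the highest. Markers of endothelium summed to between 409 and 1318 CPM in WT and between 1486 and 1755 CPM in LC3b-/-. Photoreceptor markers ranged from 299.8 to 21930 CPM in WT and from 106 to 7533 CPM in LC3b-/-, so that these groups overlapped. By fitted difference all 15 photoreceptor markers were lower in LC3b-/-, with a median log2 fold change of -1.21, and all 10 endothelium markers and all 10 tested ocular surface markers were higher. All 9 markers of fibroblasts and stroma were higher in LC3b-/- by their fitted difference, with sums of 577 to 1709 CPM in WT and 1190 to 2306 CPM in LC3b-/-. The summed markers of Müller glia and neurons, macrophages and microglia, skeletal muscle, erythrocytes, ciliary body and iris, and lens overlapped between groups, with the lens sum at most 12.2 CPM. The part of these cell types in the results on the ketone body genes was not tested, and values relative to the RPE markers are given for the 6 genes, the other ketone body genes tested and Acot1. In bulk RNA, fewer RPE cells and less RNA per RPE cell cannot be told apart.

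**Figure D1:**
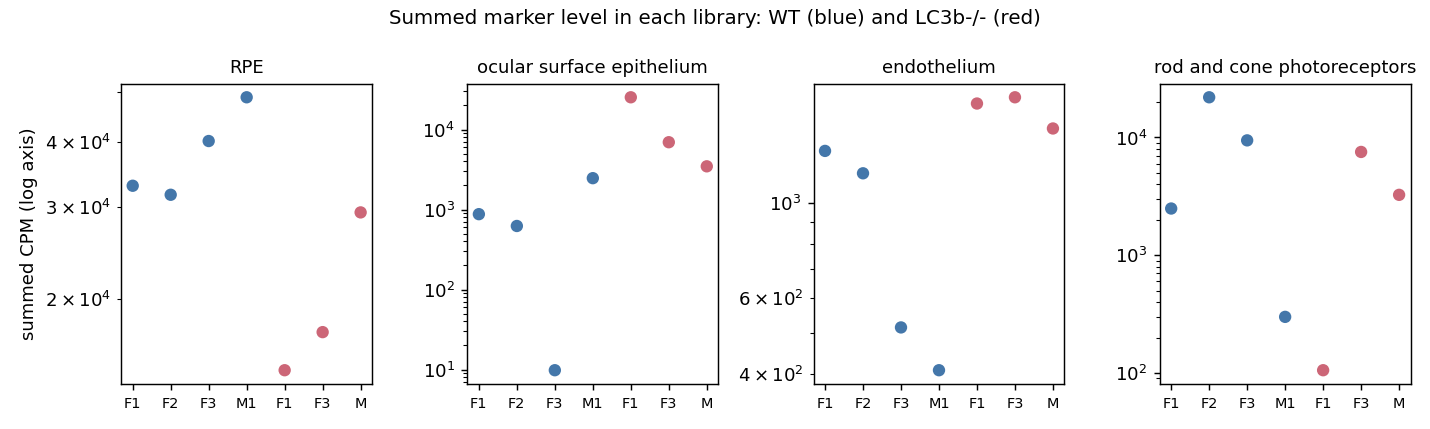
Summed CPM (log axis, which differs between panels) of 4 marker lists in each library, WT in blue and LC3b-/- in red, 1 point per mouse. The RPE sum is lower in each LC3b-/- library than in each WT library. The ocular surface and endothelium sums are higher in each LC3b-/- library, and the photoreceptor sums overlap.

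None of the 6 genes was called different between LC3b-/- and WT, where a call needs an adjusted p under 0.05 and a fold of at least 1.5 in the quasi-likelihood test of edgeR, with Benjamini-Hochberg adjusted p-values. That test called 0.235% of the 16990 genes, 19 lower and 21 higher. By fitted difference 5 of the 6 genes were below 0, beside 48.8% of all genes tested, and Oxct1 was above. Bdh1 counted among the 5 at a log2 fold change of -0.0077, whose sign changed with the processing. The median log2 fold change of the 6 genes was -0.19, beside 0.014 over all genes tested. At an unadjusted p under 0.05, 1 of the 6 genes, Bdh2, was lower, beside 10.6% of all genes, and none was higher, beside 13.5%. In Bdh2 and Cpt1a the LC3b-/- and WT libraries did not overlap and LC3b-/- was the lower, a pattern that 10.3% of all genes showed. DESeq2, the tool the study used, called Bdh2 lower and none of the other 5, and it called 3.63% of all genes lower.

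**Figure D2:**
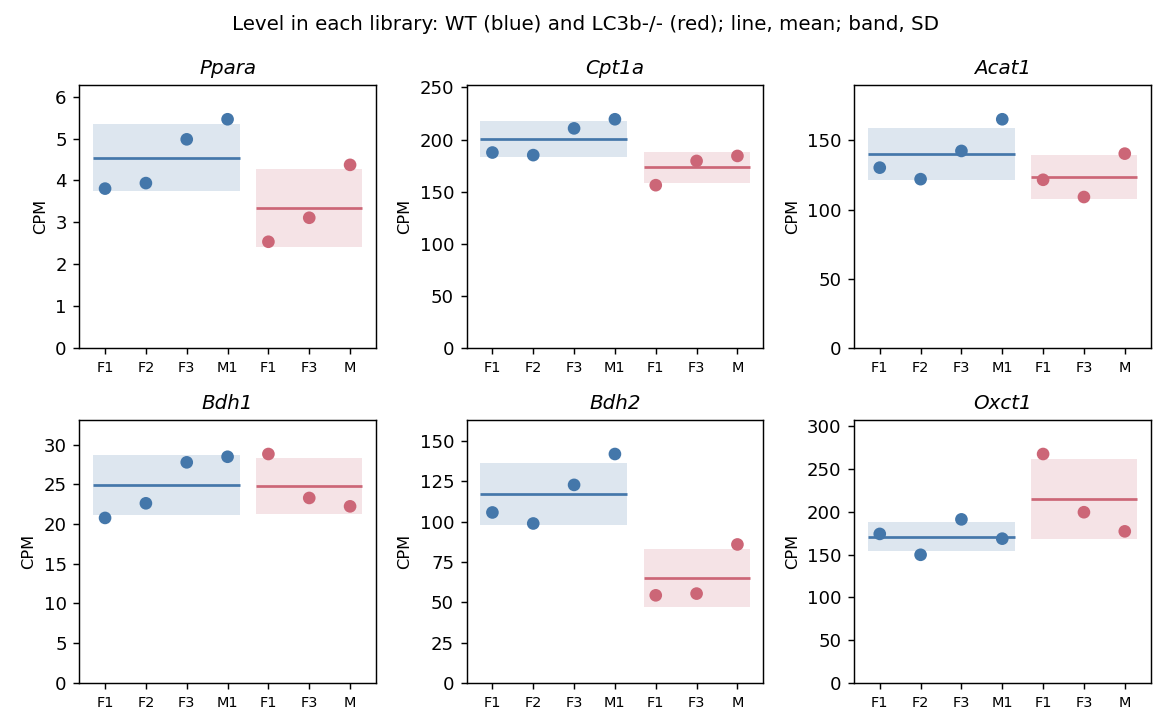
CPM of each of the 6 genes (y axes start at 0 and differ between panels) in the 4 WT libraries in blue and the 3 LC3b-/- libraries in red, with the group mean as a line and the SD as a band. The bands and points of Bdh2 are apart, those of Bdh1 lie at the same height, and the Oxct1 level of LC3b-/- F1 stands above all others.

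Ppara, on chromosome 15 at 85618656 to 85687067 on the plus strand (GRCm39), was the lowest of the 6 genes. In the order F1, F2, F3 and M1 the WT libraries had 3.80, 3.94, 4.98 and 5.46 CPM, and in the order F1, F3 and M the LC3b-/- libraries had 2.54, 3.11 and 4.37 CPM, an order kept for the other genes. The LC3b-/- male lay within the WT range and both females lay below it. The log2 fold change was -0.44 ± 0.27 (SE, n = 4 and 3; edgeR adjusted p = 0.355), with a 95% interval from -1.08 to 0.20. It was -0.28 without LC3b-/- F1 and -0.69 without LC3b-/- M. The counts behind it were 63 to 148 per library. The gene overlaps Cdpf1 on the opposite strand over 1806 identical bases of transcript, and the libraries were made with a stranded kit. Cdpf1 reached up to 16.5 CPM, above the level of Ppara, and whether any of its reads were counted for Ppara was not tested.

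Cpt1a encodes the liver form of carnitine palmitoyltransferase 1, the rate-setting entry of long-chain fatty acids into mitochondria, and lies on chromosome 19 at 3371853 to 3437996 on the plus strand. Its level was 187.6, 185.1, 210.7 and 219.5 CPM in WT and 156.2, 179.5 and 184.3 CPM in LC3b-/-. The highest LC3b-/- library, the male, was just below the lowest WT library, F2. The log2 fold change was -0.21 ± 0.13 (SE, n = 4 and 3; edgeR adjusted p = 0.336), and the interval from -0.50 to 0.081 did not reach a 1.5-fold change on either side. The exact permutation test gave a two-sided p of 0.0857.

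Acat1, mitochondrial acetoacetyl-CoA thiolase, acts in both directions of the route and lies on chromosome 9 at 53450461 to 53521731 on the minus strand. The WT libraries had 130.3, 122.0, 142.4 and 165.2 CPM, and the LC3b-/- libraries had 121.5, 109.1 and 140.4 CPM. The groups overlapped, since only LC3b-/- F1 and F3 fell below the WT range. On the log2 scale the fold change was -0.18 ± 0.15 (SE, n = 4 and 3; edgeR adjusted p = 0.490), with an interval from -0.53 to 0.17. It was -0.091 without WT M1, -0.12 without LC3b-/- F3 and -0.28 without LC3b-/- M.

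Bdh1 encodes the mitochondrial beta-hydroxybutyrate dehydrogenase that interconverts both ketone bodies, and lies on chromosome 16 at 31241087 to 31277725 on the plus strand. Its level was 20.8, 22.6, 27.8 and 28.5 CPM in WT and 28.8, 23.3 and 22.2 CPM in LC3b-/-. The LC3b-/- values spanned nearly the same range as those of WT. LC3b-/- and WT differed by -0.0077 ± 0.16 on the log2 scale (SE, n = 4 and 3; edgeR adjusted p = 0.983), and its sign changed with the scaling, being 0.024 with library size alone. The interval, -0.39 to 0.37, held no change of 1.5-fold or more.

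Bdh2 gave the largest difference of the 6 genes. It encodes a cytosolic short-chain dehydrogenase that can oxidise beta-hydroxybutyrate and has also been linked to iron-binding siderophore synthesis, and lies on chromosome 3 at 134986982 to 135010187 on the plus strand. Its level was 105.7, 98.9, 122.9 and 142.0 CPM in WT and 54.3, 55.4 and 85.9 CPM in LC3b-/-. Each LC3b-/- library was below each WT library, and the male was the highest of its group in both genotypes. The WT mean was 117.4 ± 19.3 CPM (SD, n = 4) and the LC3b-/- mean 65.2 ± 17.9 CPM (SD, n = 3). The log2 fold change was -0.85 ± 0.21 (SE; interval -1.34 to -0.35; edgeR unadjusted p = 0.00446, adjusted p = 0.0982), a 1.80-fold lower fitted level that missed the adjusted threshold. It passed in DESeq2 (log2 fold change -0.87, adjusted p = 0.00436), in edgeR with sex as a covariate (-0.91, adjusted p = 0.0432) and in edgeR without LC3b-/- M (-1.10, adjusted p = 0.0407). Over the whole table these settings called 1822, 197 and 485 genes, beside 40 in the main edgeR fit. Bdh2 did not pass in any other fit. Among those were limma voom (adjusted p = 0.0580), edgeR on females only (adjusted p = 0.0683) and edgeR without LC3b-/- F1 (adjusted p = 0.302). The difference was -0.99 on the log2 scale between the means of the females and -0.73 between the single male of each genotype. With 1 male of each genotype, these libraries cannot decide whether the difference depends on sex.

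The 250 bases before the start of the canonical Bdh2 transcript (GRCm39, chr3:134986732-134986981, plus strand) are shown because Bdh2 is the member that DESeq2 called. PPARα binds as a pair with RXR to direct repeats of the DR1 type, searched here as 2 copies of AGGTCA with 1 letter of any kind between them, on both strands, with at most 3 of 12 letters different.
Bdh2: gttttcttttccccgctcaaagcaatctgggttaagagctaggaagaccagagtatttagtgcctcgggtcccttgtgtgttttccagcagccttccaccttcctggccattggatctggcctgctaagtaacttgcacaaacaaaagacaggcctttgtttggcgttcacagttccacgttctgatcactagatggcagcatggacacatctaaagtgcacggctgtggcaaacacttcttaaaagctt
No stretch of the Bdh2 window came that close, nor did one in the windows of Ppara, Cpt1a and Acat1. The windows of Bdh1 and Oxct1 each held 1 such stretch, AGATCAGATGACA beginning 164 bases and AGGTCATGTCTCA beginning 248 bases before the start. Of all 21757 windows of protein-coding genes, 20.3% held at least 1. A match of letters is not a binding site, and a window without one says nothing of the receptor.

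Oxct1, the transferase that commits acetoacetate to use as fuel, lies on chromosome 15 at 4055638 to 4184828 on the plus strand. Its level was 174.3, 149.8, 191.3 and 168.7 CPM in WT and 267.7, 199.6 and 177.2 CPM in LC3b-/-. Both LC3b-/- females were above all WT libraries and the male lay within their range. On the log2 scale the fold change was 0.33 ± 0.17 (SE, n = 4 and 3; interval -0.069 to 0.73; edgeR adjusted p = 0.280). LC3b-/- F1 set much of this value, which was 0.14 without it. The antisense gene Oxct1as, which shares 468 bases of transcript with Oxct1, reached at most 3.94 CPM.

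The 6 genes were also set against the RPE markers in place of the whole library. This scaling, chosen after the data were seen, takes the log2 CPM of a gene minus the mean log2 CPM of the 12 RPE markers in the same library. That mean was itself 0.72 lower in LC3b-/- on the log2 scale (exact permutation, two-sided, p = 0.0571), so that the scaling raised the difference of each gene by about this amount, and the median over all genes tested was 0.74. A gene near 0 on this scale is one that was lower in the library by about as much as the mean of the RPE markers. The 12 markers themselves were spread, with fitted log2 fold changes from -1.58 for Lrat to 0.19 for Best1. The difference of Bdh2 was -0.15 (p = 0.371 by the exact two-sided permutation test), and its groups overlapped. Ppara stood at 0.26, Cpt1a at 0.51, Acat1 at 0.54, Bdh1 at 0.72 and Oxct1 at 1.03. In the last 4 of these every LC3b-/- library was above each WT library, as in 50.8% of all genes on this scale, so that this separation is no result about them.

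**Figure D3:**
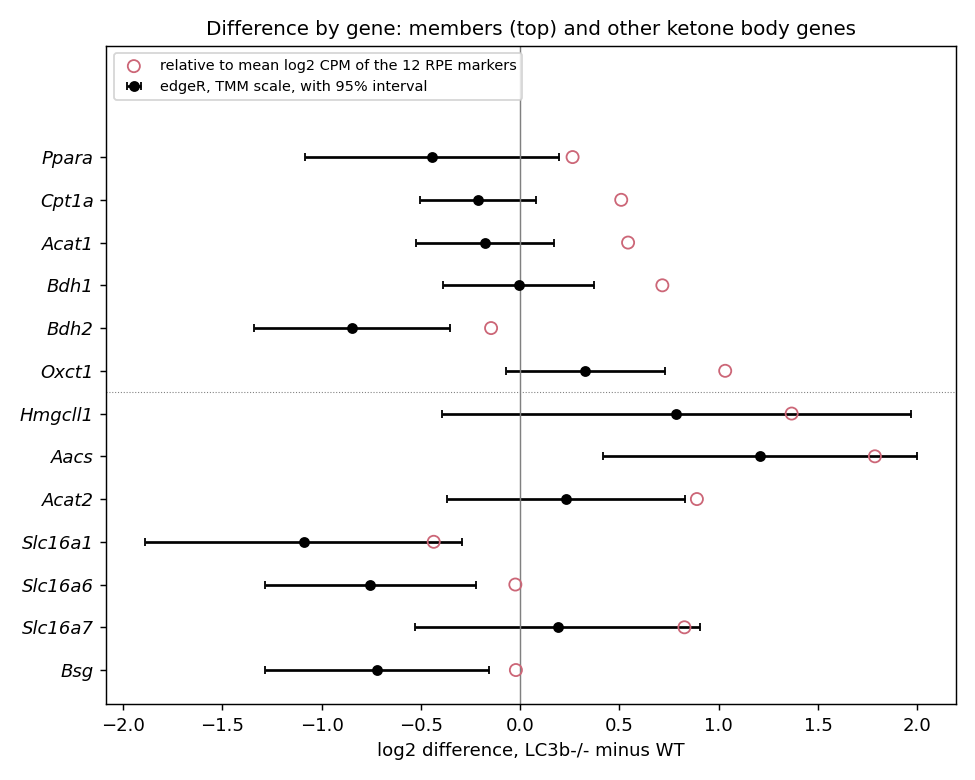
Log2 difference, LC3b-/- minus WT, of the 6 genes and of the 7 tested genes among the other ketone body genes. Black points with bars are edgeR estimates with 95% intervals, and open red circles are the differences relative to the mean of the 12 RPE markers. The circles lie to the right of the points throughout, as the RPE marker mean was 0.72 lower in LC3b-/-, and those of Bdh2, Slc16a6 and Bsg are close to 0 at -0.15, -0.024 and -0.021.

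Per length, the order of the 6 genes in WT was Bdh2, Oxct1, Acat1, Cpt1a, Bdh1 and Ppara. Divided by the length of the canonical transcript, the WT levels were 106.8 ± 17.5 CPM per kb for Bdh2, 48.5 ± 4.84 for Oxct1, 33.2 ± 4.46 for Acat1, 30.4 ± 2.58 for Cpt1a, 7.97 ± 1.22 for Bdh1 and 1.28 ± 0.23 CPM per kb for Ppara (SD, n = 4). Acat1 and Cpt1a did not differ beyond their spread, with 28.9 to 39.1 and 28.1 to 33.3 CPM per kb, while the WT ranges of the other neighbours in this order did not overlap. The first place of Bdh2 rested on the transcript chosen, since with all annotated exons merged its WT level was 26.1 CPM per kb and that of Oxct1 35.5. Merged exons also parted Cpt1a, at 18.3 and from 16.9 CPM per kb upwards, from Acat1, at 8.60 and at most 10.2 CPM per kb. In LC3b-/- libraries the ranges of Bdh2, 49.4 to 78.2 CPM per kb, and Oxct1, 50.2 to 75.9, overlapped.

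**Figure D4:**
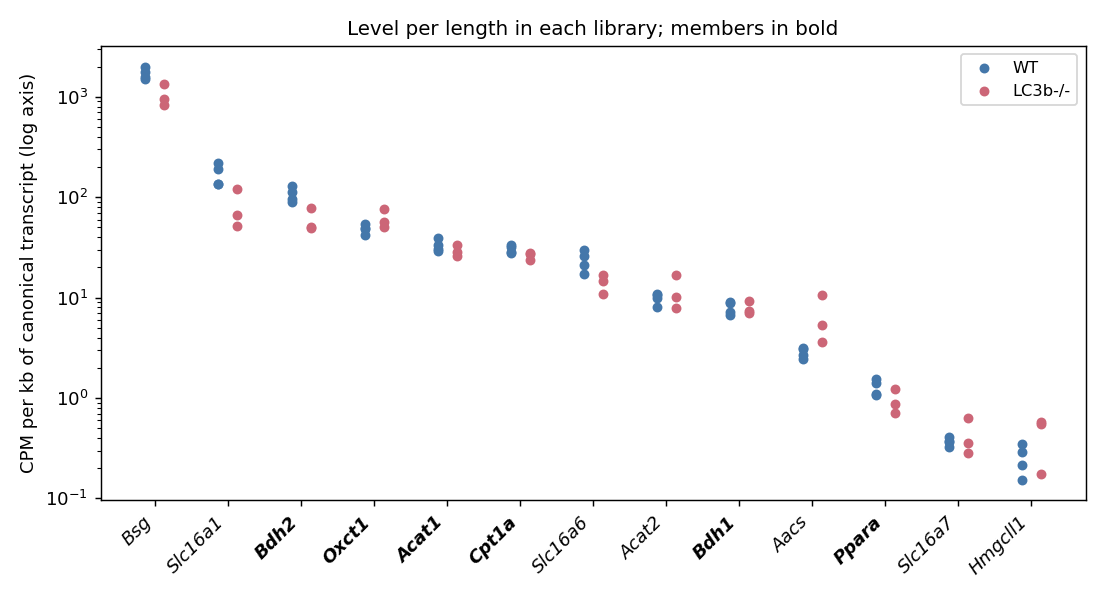
CPM per kb of canonical transcript (log axis) in each library for the 6 genes, in bold, and the other ketone body genes tested, ordered by the WT mean, WT in blue and LC3b-/- in red. Bdh2 has the highest WT level of the 6 genes at 106.8 CPM per kb and Ppara the lowest at 1.28 CPM per kb.

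Across the 7 libraries, the 6 genes fell into different patterns. These correlations of log2 CPM are descriptions over libraries that share genotype and cell makeup, and carry no test. Ppara, Cpt1a, Acat1 and Bdh2 varied together, with Pearson r between 0.75 for Cpt1a with Acat1 and 0.95 for Ppara with Cpt1a. Oxct1 ran against Ppara at r = -0.70 and against Bdh2 at -0.69, while Bdh1 was weakly related to Bdh2 at 0.068. Each of the 6 genes was set against 9905 or 9906 genes with a mean of at least 10 CPM. With so many candidates over 7 libraries, the best r was near 1 for each of the 6 genes. The pattern of Bdh2 was most like those of Pltp, Arhgef37 and Cryz, each at r = 0.999 or 0.998. Ppara was most like Sox5 (r = 0.997), Trf (0.996) and Tmem229b (0.994). Cpt1a was most like Angel2 (0.997), Gspt2 (0.996) and Zfp322a (0.990), and Acat1 like Trmt1l (0.997), Mapk1ip1l (0.994) and Sox9 (0.991). Bdh1 was most like Ints10 (0.978), Fcsk (0.974) and Dcun1d1 (0.962), and Oxct1 like Atad3a (0.986), Usf3 (0.985) and Cobll1 (0.981).

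Among 9 other genes of ketone body metabolism and transport, 7 were tested and none was called by edgeR. At an unadjusted p under 0.05, 3 of the 7 were lower and 1 higher, beside 10.6% and 13.5% of all genes. DESeq2 called those same 3, Slc16a1, Slc16a6 and Bsg, lower, and Aacs higher, beside 3.63% of all genes called lower and 7.09% called higher. Oxct2a, the testis form of the transferase, had 1 count over all libraries, and Oxct2b had 0, which allows up to 3 counts in any 1 library.

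Hmgcll1, which encodes an enzyme found outside mitochondria, had under 2.5 CPM in each library and a log2 fold change of 0.79 (edgeR adjusted p = 0.370). Acetoacetate can also be activated in the cytosol by Aacs for lipid synthesis. Aacs had 12.4, 11.4, 14.3 and 14.4 CPM in WT and 49.5, 24.6 and 16.8 CPM in LC3b-/-, a log2 fold change of 1.21 (edgeR adjusted p = 0.109) that was 0.66 without LC3b-/- F1. Acat2, the cytosolic thiolase, had a log2 fold change of 0.23 (edgeR adjusted p = 0.610) and -0.13 without LC3b-/- F1. Acat2 shares 1477 bases at 97.7% identity with Acat3, so that reads of these 2 genes may be divided wrongly. It also shares 445 bases of transcript with Tcp1 on the opposite strand, which reached up to 121.4 CPM.

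Among the transporters, Slc16a1, which encodes the monocarboxylate transporter MCT1, had 621 to 1017 CPM in WT and 236 to 562 CPM in LC3b-/-, with a fitted log2 difference of -1.09 (edgeR adjusted p = 0.129). Slc16a6, known from the liver as an exporter of beta-hydroxybutyrate, had 73.5 to 126.9 CPM in WT and 46.1 to 70.4 CPM in LC3b-/-, a log2 difference of -0.75 (edgeR adjusted p = 0.122). Bsg, the chaperone that takes MCT1 to the cell surface, had 2737 to 3625 CPM in WT and 1489 to 2427 CPM in LC3b-/-, a log2 difference of -0.72 (edgeR adjusted p = 0.144). None of these 3 overlapped between groups, LC3b-/- being the lower as in 10.3% of all genes. Slc16a7, the gene of MCT2, had a log2 fold change of 0.19 (edgeR adjusted p = 0.736). Slc16a6 shares 1640 bases of transcript with Amz2 on the opposite strand, which reached up to 27.6 CPM. Relative to the RPE markers, where the median gene stood at 0.74, Slc16a1 was at -0.44, Slc16a6 at -0.024 and Bsg at -0.021, each with overlapping groups. On the same scale Slc16a7 was at 0.83, Acat2 at 0.89, Hmgcll1 at 1.37 and Aacs at 1.79, and only Hmgcll1 of these 4 overlapped between groups. In Slc16a7, Acat2 and Aacs LC3b-/- was the higher, as in 50.8% of all genes on this scale, so that their separation is no result about them.

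The steps before and around ketone bodies gave 1 call by edgeR among 4 further lists, beside 0.235% of all genes tested. These lists held 14 tested genes of acyl-CoA supply and the carnitine shuttle and 15 of mitochondrial beta-oxidation. They also held 10 tested PPAR receptors and cofactors and 14 tested PPARα target genes, with some genes shared between lists. Acot1, a PPARα target that frees fatty acids from cytosolic acyl-CoA, had 32.7, 31.8, 30.6 and 35.6 CPM in WT and 9.18, 10.3 and 15.3 CPM in LC3b-/-. The LC3b-/- libraries were all below the WT libraries, whose values were close together. It fell by 1.49 on the log2 scale (SE 0.19, edgeR adjusted p = 0.0475), 2.81-fold. The call ended when any 1 of WT F2, F3, M1 or LC3b-/- F1 or F3 was left out, with edgeR adjusted p between 0.110 and 0.197, though the log2 fold change stayed between -1.75 and -1.35 over all 7 such fits. Relative to the RPE markers the difference was -0.80 and the LC3b-/- libraries were all below the WT libraries, as in 0.547% of all genes (exact permutation p = 0.0286, the smallest possible). These are the libraries that gave the call, on a scale chosen after the data were seen, so that this adds no independent support. The single RPE markers had fitted log2 fold changes from -1.58 for Lrat to 0.19 for Best1, a range that holds the value of Acot1. Acot1 shares 1274 bases at 95.1% identity with its near copy Acot2, so that reads may be divided wrongly between them. Its window is shown as that of the only gene called.
Acot1: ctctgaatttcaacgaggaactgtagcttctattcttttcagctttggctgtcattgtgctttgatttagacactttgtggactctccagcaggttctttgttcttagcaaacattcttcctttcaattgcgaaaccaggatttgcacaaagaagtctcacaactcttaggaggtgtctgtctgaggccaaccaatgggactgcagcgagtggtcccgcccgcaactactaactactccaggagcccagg
The Acot1 window (GRCm39, chr12:84056006-84056255, plus strand) held no stretch within 3 letters of the DR1 motif.

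Of 19 PPARα target genes, 14 were tested, 11 were below 0 and 3 above, with a median log2 fold change of -0.61. Their values ran from -1.49 to 1.54. Over all genes tested 48.8% were below 0. The mean log2 level of the RPE markers was 0.72 lower in the same LC3b-/- libraries, and its part in this list was not tested. At an unadjusted p under 0.05, 6 were lower and 2 higher, beside 10.6% and 13.5% of all genes. Of the 19, 4 also stand on the other lists here, and among the 10 tested ones that do not, 8 were below 0 and 4 were lower at an unadjusted p under 0.05. The list was chosen with earlier results of these data known, and it lost 5 genes to the filter on low counts.

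Of 15 genes of mitochondrial beta-oxidation, 14 were below 0, with a median log2 fold change of -0.24, and 7 were lower and none higher at an unadjusted p under 0.05. Over all genes tested 48.8% were below 0, 10.6% were lower and 13.5% higher at that p, and the mean log2 level of the RPE markers was 0.72 lower in the same libraries, whose part in this list was not tested. Acadvl, the very long-chain acyl-CoA dehydrogenase, had a log2 fold change of -0.47 (edgeR adjusted p = 0.116), and Etfb, a subunit of the electron carrier for these dehydrogenases, -0.64 (adjusted p = 0.125). Decr1, the dienoyl-CoA reductase for unsaturated fatty acids, stood at -0.54 (edgeR adjusted p = 0.153). The count of 7 was 2 without LC3b-/- F1, without LC3b-/- F3 or without WT M1, and 4 without WT F1.

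The 14 genes of acyl-CoA supply and the carnitine shuttle divided evenly, 7 below 0 and 7 above, with 3 lower and 4 higher at an unadjusted p under 0.05, beside 10.6% and 13.5% of all genes. The 4 higher were 2 without WT F2 or without WT F3. Acsl5, an acyl-CoA synthetase, had a log2 fold change of 1.12 (edgeR adjusted p = 0.0906). Mlycd, which removes the Cpt1a inhibitor malonyl-CoA, stood at -0.80 (edgeR adjusted p = 0.0967), and Cpt2, the inner-membrane partner of Cpt1a, at -0.62 (edgeR adjusted p = 0.126). Among 10 PPAR receptors and cofactors, 3 were below 0 and 7 above. Ppard, the other PPAR of most tissues, had a log2 fold change of 0.44 (edgeR adjusted p = 0.121), Rxra, the partner receptor, 0.41 (edgeR adjusted p = 0.178), and Ppargc1a, the coactivator PGC-1α, -0.53 (edgeR adjusted p = 0.173).

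**Figure D5:**
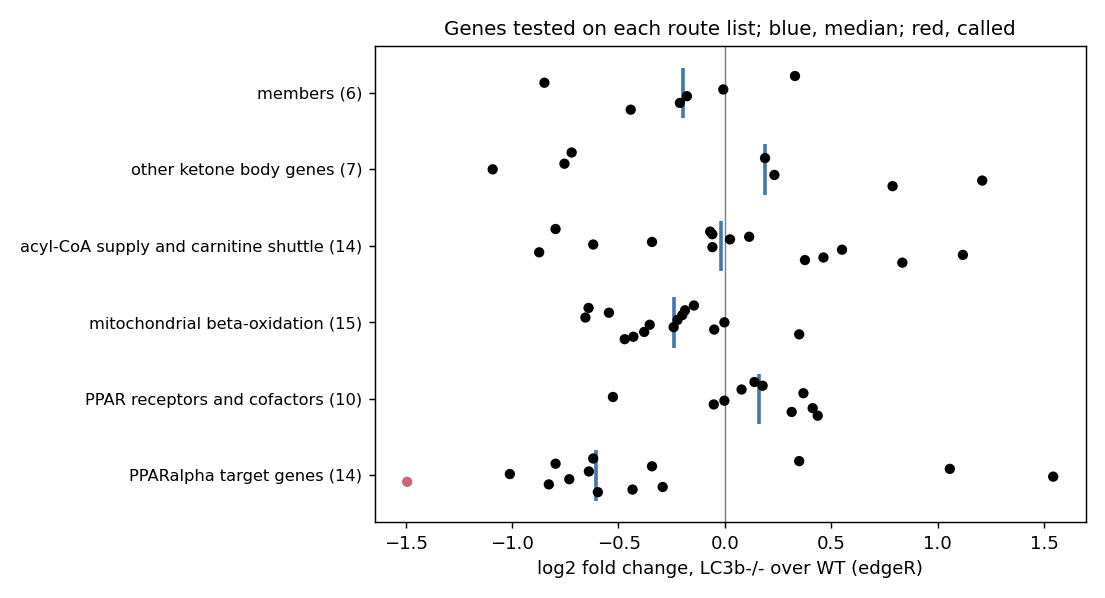
Log2 fold change, LC3b-/- over WT, of each gene tested on 6 lists, with the number tested in brackets, the median as a blue line and the called gene in red. The 6 genes spread from -0.85 to 0.33, mitochondrial beta-oxidation lies mostly below 0, and Acot1 is the only red point at -1.49.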

How the data were processed

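RPE sheets were released from eyecups with hyaluronidase and trypsin after cornea, ciliary body, lens and neural retina had been removed, and polyadenylated RNA was read with a stranded kit as single reads. The authors quantified the reads with salmon against GENCODE transcripts (vM26, assembly GRCm39) and summed them per gene with tximeta. The deposited table holds these estimated counts, not normalized, for 52740 identifiers, and 0 of its sample columns were left unused. Symbols, positions and lengths came from GENCODE vM39 on the same assembly, which held 51721 of the identifiers. The others took between 0.032% and 0.0436% of the counts.

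Estimated counts were rounded. Genes that passed edgeR's filterByExpr were scaled by TMM and tested with the quasi-likelihood test (edgeR 4.0.16, R 4.3.3), LC3b-/- against WT, with Benjamini-Hochberg adjustment over 16990 genes. DESeq2 1.42.0 and limma 3.58.1 served as alternatives, beside other scalings and filters, sex as a covariate, females only, a block on the mouse label, and leaving out each library. Single values were tested by exact permutation of the 35 assignments of 4 and 3 libraries, two-sided. The edgeR script was tested on simulated data. No pair of libraries of a group agreed within sampling noise. Shared transcript sequence was sought with BLAST at 95% identity over at least 100 bases. Positions and sequences are those of the GRCm39 genome. The intervals are 95% confidence intervals of the difference between genotypes, with each mouse as 1 replicate.

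The genes and lists were chosen with earlier results of these data known, and some genes of the route are not reported here. Named were the 6 genes, all other ketone body genes, each called gene of the further lists or otherwise the 3 with the smallest unadjusted edgeR p, and the 3 genes most correlated with each of the 6. The labels spell the knockout genotype LCb-/-, which is written LC3b-/- here after the sample names and the study.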

Additional observations from a re-analysis of the deposited data

How the results depend on the processing

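The number of genes called over the whole table was 40 with edgeR. It was 1822 with DESeq2, 124 with limma voom, 78 with no filter on low counts, 197 with sex as a covariate, 96 in females only, 1 with the replicate block, and 11 to 485 when 1 library was left out, and the cause was not tested. Of the 6 genes, 1 (Bdh2) was called with DESeq2 (log2 fold change -0.87), with sex as a covariate (-0.91) and without LC3b-/- M, and 0 in each other fit. Of the other ketone body genes, 4 were called with DESeq2 and 0 to 1 when 1 library was left out. The log2 fold change of Bdh2 was -1.10 to -0.73 over the fits without 1 library. That of Bdh1, -0.0077, turned to 0.024 with library size alone, 0.0079 with at least 10 counts in every library and 0.13 in females only, and ran from -0.13 to 0.062 without 1 library. Slc16a7 turned to -0.22 in females only and ran from -0.22 to 0.41 without 1 library, and Acat2 ran from -0.13 to 0.45. Relative to the RPE markers, a scaling added after the data were seen, Ppara turned to 0.26, Cpt1a to 0.51, Acat1 to 0.54 and Bdh1 to 0.72, beside a median of 0.74 over all genes. With merged exons, the WT level in CPM per kb was 0.69 for Ppara, 18.3 for Cpt1a, 8.60 for Acat1, 5.44 for Bdh1, 26.1 for Bdh2 and 35.5 for Oxct1. Mice with the same label deviated together with r = 0.146 for F1, 0.243 for F3 and -0.172 for M. For unlike labels r ran from -0.50 to 0.53. Over so few mice these values cannot decide whether the labels pair the mice. With the replicate block on these labels, the log2 fold change of Bdh2 was -0.95 (edgeR adjusted p = 0.117), 0 of the 6 genes were called, and the call of Acot1 ended (adjusted p = 0.117). The settings for single named genes outside the 6 and for the list counts were added after the data were seen. With 4 and 3 mice, the intervals of Ppara and Oxct1 leave room for changes beyond 1.5-fold.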
